A study of Mus musculus with 12 samples.

Results

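Myeloid C-type lectin receptors are surface proteins with which monocytes recognise sugars and glycolipids of fungi and mycobacteria and material from dying cells. The members described here were chosen by gene symbol, with earlier results of these data known. They were 7 receptors (Clec4e, Clec4d, Clec4n, Clec7a, Clec5a, Clec4a2 and Clec12a) and the adaptor Card9, 8 of the 54532 genes listed in the files. All 8 passed the filter on low counts that left 14324 genes for testing. RNA-seq counts were taken from bone marrow monocytes that carried the integrin CD11b and much Ly6C on their surface, in 12 libraries. There were 4 groups of 3 libraries: cells of mice given 300 mM succinate for 7 days and then cultured with lipopolysaccharide (LPS, a bacterial cell wall component sensed by Toll-like receptor 4) for 4 h, cells of control mice cultured with LPS for 4 h, and unstimulated cells of succinate mice and of control mice. The sources used here do not give strain, sex and age of the mice, the route of succinate or the LPS dose. The labels do not state that replicate libraries are from different mice, and the p-values then reflect the spread among these samples alone, possibly a technical one.

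Most activating receptors of this family carry no signalling motif of their own or only a single one. Clec4e (Mincle), Clec4d (MCL) and Clec4n (Dectin-2) pair with the Fc receptor gamma chain (Fcer1g), Clec5a (MDL-1) pairs with DAP12 (Tyrobp), and Clec7a (Dectin-1), the receptor for beta-glucans, signals through a short tyrosine motif in its own tail. The kinase Syk is then activated and a complex of Card9, Bcl10 and Malt1 is built that leads to NF-kB. Clec4a2 (DCIR) and Clec12a (MICL) carry inhibitory tyrosine motifs that recruit phosphatases and dampen such signals.

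Apart from Card9 on chromosome 2 (26352176 to 26360918, GRCm38), the members lie on mouse chromosome 6. Clec4a2 (123106428 to 123143999), Clec4n (123229843 to 123247021), Clec4d (123262111 to 123275265) and Clec4e (123281789 to 123289870) follow each other, and Clec12a (129342691 to 129365303) and Clec7a (129461591 to 129472779) lie in a more distal lectin cluster. Clec5a (40574894 to 40585821) stands alone. The bases upstream of the transcription start are shown for the 4 members that LPS moved upward in both kinds of mice (Clec4e, Clec4d, Clec5a and Clec12a) and for Clec7a, a member it moved downward. Each is the 250 bases before the start in RefSeq (GRCm38.p6), 5′ to 3′ on the gene's strand, with a match to a searched motif in capitals.
Clec4e, chr6:123289872-123290121, minus strand: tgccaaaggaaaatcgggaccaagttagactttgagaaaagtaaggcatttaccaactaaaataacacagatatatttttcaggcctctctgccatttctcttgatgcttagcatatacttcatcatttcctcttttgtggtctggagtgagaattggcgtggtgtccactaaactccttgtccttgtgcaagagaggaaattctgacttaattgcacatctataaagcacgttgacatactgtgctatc
Clec4d, chr6:123261857-123262106, plus strand: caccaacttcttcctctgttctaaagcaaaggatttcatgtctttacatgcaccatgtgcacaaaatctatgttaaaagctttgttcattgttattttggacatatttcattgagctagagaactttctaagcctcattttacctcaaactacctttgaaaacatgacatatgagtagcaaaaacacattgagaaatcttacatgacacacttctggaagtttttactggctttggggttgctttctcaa
Clec5a, chr6:40585806-40586055, minus strand: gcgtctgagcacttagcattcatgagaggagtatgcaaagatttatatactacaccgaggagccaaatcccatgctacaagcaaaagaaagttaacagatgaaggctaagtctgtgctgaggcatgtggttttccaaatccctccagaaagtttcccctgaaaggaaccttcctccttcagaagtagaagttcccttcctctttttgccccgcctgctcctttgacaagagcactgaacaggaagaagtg
Clec12a, chr6:129349994-129350243, plus strand: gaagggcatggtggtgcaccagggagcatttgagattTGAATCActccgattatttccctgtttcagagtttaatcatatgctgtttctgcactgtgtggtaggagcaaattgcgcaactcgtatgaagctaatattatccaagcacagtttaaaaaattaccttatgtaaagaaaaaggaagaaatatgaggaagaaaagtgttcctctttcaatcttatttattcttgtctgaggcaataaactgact
Clec7a, chr6:129472780-129473029, minus strand: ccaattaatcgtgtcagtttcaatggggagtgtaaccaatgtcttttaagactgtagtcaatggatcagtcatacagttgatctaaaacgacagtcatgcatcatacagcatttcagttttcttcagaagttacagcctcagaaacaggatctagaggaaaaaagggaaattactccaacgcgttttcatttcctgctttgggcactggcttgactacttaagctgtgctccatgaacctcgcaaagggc
RefSeq windows of 250 bases before to 50 after the start were matched for 7 of the 8 members (8 windows, since Clec7a has a pair of starts) and searched on both strands for 5 motifs. The NF-kB motif, GGG and TTTCC with any 2 bases between, was in 0 of the 8 windows and in 1.63% of all 32851 mouse windows. GAGGAAGT (PU.1) was in 0 against 3.20%, and TTGCNNNAA, searched for C/EBP, in 0 against 9.56%. TTGCNNNAA cannot match the shorter C/EBP palindrome TTGCGCAA, which the Clec12a bases above contain in lower case. The 0 is therefore not a count of C/EBP sites. TGANTCA (AP-1) was in 2 windows, those of Clec12a (from position -213, the match in capitals) and Clec4a2 (from position 32 after the start), against 7.81% of all windows. The interferon-response motif (ISRE), GAAA and GAAA with any 2 bases between, was in 1, that of Clec4d, as TTTCCTTTTC on the gene's strand from position 1, against 3.44%. No matches overlapped. These are descriptions of letters in short windows and not of binding.

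Total counts per library were 15975882 to 18306747 (median 16980357). All 9 Ly6C-high monocyte markers were measured, and the lowest value of any of them was 22.6 CPM, for Ccr2 (CPM, the usual depth-scaled count, here with scaling by trimmed means). Of 8 macrophage markers 4 (Mertk, C1qa, C1qb and C1qc) were under 1 CPM in every library, while Vcam1 (86.7 to 833 CPM) and Adgre1 (66.1 to 159 CPM) were well above it. Of 9 dendritic cell markers Clec9a alone was under 1 CPM throughout, and H2-Ab1 reached 38.2 and Xcr1 22.5 CPM. Of 8 T and NK cell markers all but Nkg7 stayed under 1 CPM, as did 2 of 6 erythroid markers, and none of 7 B cell markers did, with Ighm at 61.9 to 208 CPM. All 13 neutrophil markers were detected, at very different levels. Ly6g, the defining one, had 2.06 to 8.33 CPM and Cxcr2 8.66 to 31.4 CPM. Elane had 610 to 1372 CPM, S100a9 1434 to 5506 CPM and Ngp 2442 to 6298 CPM. Mean log2 CPM of 5 genes (S100a4, Rpl24, Rpl10-ps3, Gm14303 and Rpl35a-ps2) parted the libraries into an upper class of 5 (3.19 to 4.03; replicates 2 and 3 of each unstimulated group and replicate 3 of control with LPS) and a lower class of 7 (0.82 to 1.46), and results that rest on this are given both ways. Replicate 1 was the only unstimulated library of each kind of mouse in the lower class. LPS and interaction values within that class therefore rest on lone unstimulated libraries. In bulk samples, fewer cells of a type and less RNA per cell cannot be told apart.

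The first question was how LPS changed these transcripts. In cells of succinate mice, 4 of the 8 members were higher and 2 lower with LPS, and the same counts were found in control mice. Clec4e, Clec4d, Clec5a and Clec12a were the higher and Clec4n and Clec7a the lower ones in each kind of mouse, while Clec4a2 and Card9 were not called in either. Of all genes tested, 14.1% were called higher and 16.2% lower in succinate mice (30.2% in all), and 15.3% higher and 14.8% lower in control mice (30.1% in all). The members' median log2 fold change was 0.49 in succinate mice and 0.42 in control mice, beside -0.02 and 0.00 over all genes. All called members had groups that did not overlap, as had 41.4% of all genes in succinate mice and 45.5% in control mice. Changes are given as log2 fold change ± SE, and p-values (edgeR, quasi-likelihood) were adjusted by Benjamini-Hochberg over all 14324 genes.

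**Figure D1:**
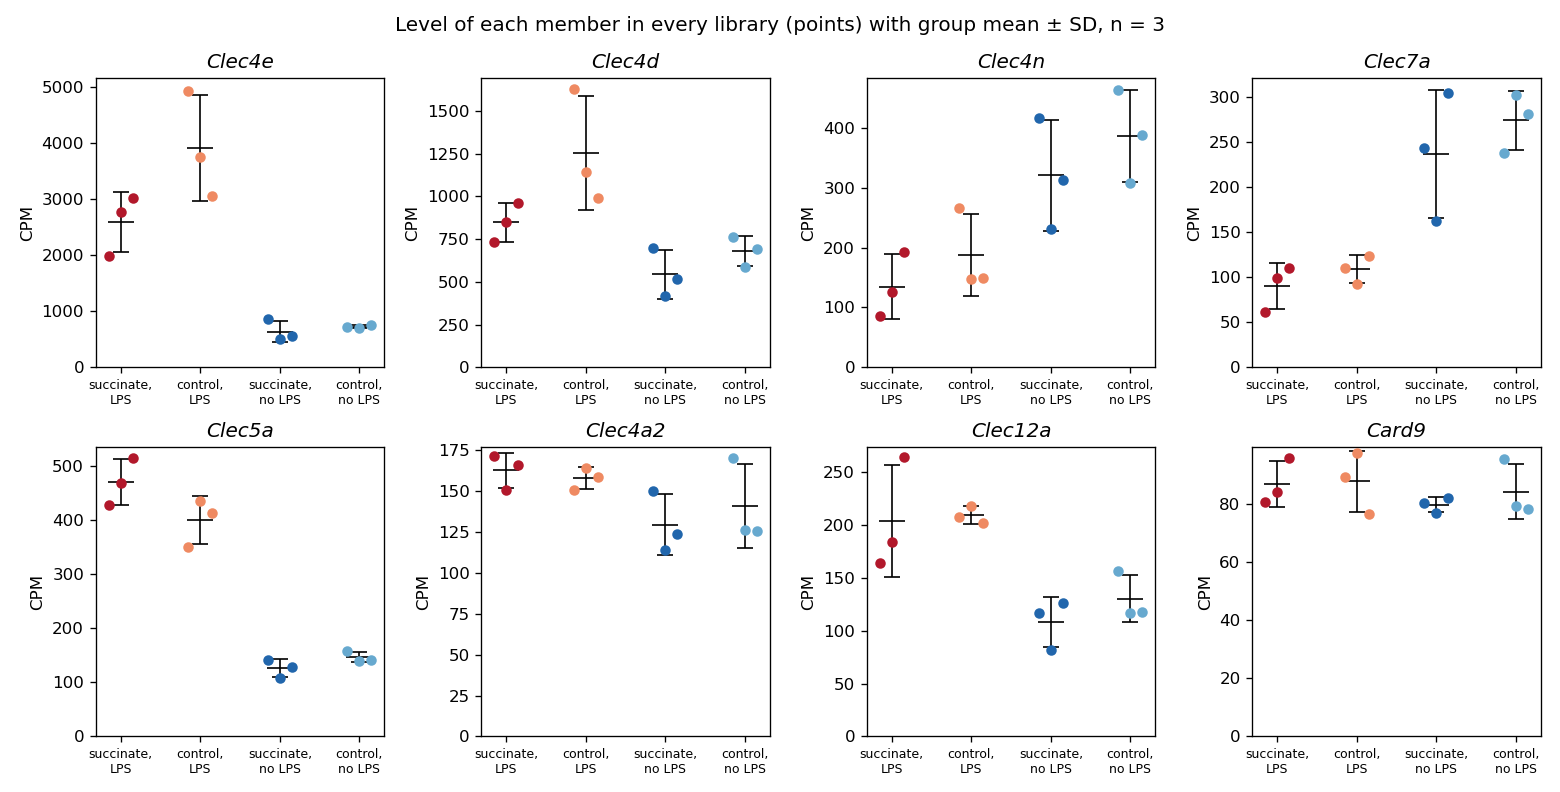
CPM (linear axis from 0) of the 8 members in each library; points are libraries and bars are the group mean ± SD (n = 3). Clec4e lay between 1990 and 4925 CPM in the 6 LPS libraries and between 505 and 855 CPM in the others, while Card9 lay between 76.7 and 97.6 CPM in all 12.

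Clec4e is the receptor for mycobacterial cord factor and for products of dying cells. In the main fit it had the largest log2 fold change of the 8 members with LPS in each kind of mouse. In succinate mice it had 1990, 2769 and 3016 CPM with LPS, against 855, 505 and 557 CPM without. The lowest LPS library stood well above the highest unstimulated library. The change was 2.02 ± 0.22 (4.06-fold, 95% interval 1.55 to 2.49 on the log2 scale, adjusted p = 4.9e-06, edgeR). In control mice Clec4e had 4925, 3749 and 3049 CPM with LPS, against 713, 702 and 761 CPM without, and the groups again did not overlap. That change was 2.43 ± 0.22 (5.39-fold, adjusted p = 8.34e-07, edgeR). Only 3.45% of genes in succinate mice and 3.04% in control mice had a higher log2 fold change. The order among members changed in the lower class, which has 1 unstimulated library of each kind of mouse. There Clec4e was at 1.63 in succinate mice, below Clec5a at 1.76. In control mice Clec4e was at 2.64 there, above Clec5a at 1.35.

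Clec4d, the partner with which Clec4e forms complexes at the cell surface, moved less. In succinate mice it had 730, 851 and 961 CPM with LPS, against 700, 415 and 516 CPM without, so that replicate 1 of both groups nearly met. The change was 0.64 ± 0.20 (1.56-fold, edgeR adjusted p = 0.0263). This call was lost without any of 4 single libraries: unstimulated succinate replicate 2 (0.50) or 3 (0.63), or succinate with LPS replicate 2 (0.64) or 3 (0.54). A covariate for library class ended it too (0.37, adjusted p = 0.138, edgeR). Within the lower class, which has 1 unstimulated succinate library, the change was 0.30. In control mice Clec4d had 1628, 1142 and 991 CPM with LPS, against 763, 589 and 691 CPM without, a clear separation (0.88 ± 0.20, adjusted p = 0.00393, edgeR).

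Clec4n, which binds mannans of fungal walls, went the other way from its neighbours Clec4d and Clec4e. In succinate mice it had 86.5, 125 and 193 CPM with LPS, against 416, 231 and 313 CPM without. All LPS libraries were below all unstimulated ones, though with a wide spread (-1.25 ± 0.29, adjusted p = 0.00467, edgeR). In control mice it had 266, 148 and 150 CPM with LPS, against 462, 308 and 388 CPM without (-1.04 ± 0.29, adjusted p = 0.0141, edgeR). This call in control mice was lost without unstimulated control replicate 1 (-0.89) and without control LPS replicate 2 (-0.90) or 3 (-0.90). Within the lower class, which has 1 unstimulated control library, the change was -1.13.

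Clec7a, the beta-glucan receptor, fell in parallel in both kinds of mice. With succinate it had 61.6, 99.1 and 110.0 CPM with LPS, against 243, 163 and 305 CPM without. In control mice it had 110.3, 92.9 and 124 CPM with LPS, against 238, 302 and 282 CPM without. No LPS library reached the lowest unstimulated one. The changes were -1.39 ± 0.23 in succinate mice (adjusted p = 0.000243) and -1.33 ± 0.23 in control mice (adjusted p = 0.000344, edgeR). Both calls held without any single library and with every other tool and scaling. Within the lower class, which has 1 unstimulated library of each kind of mouse, both changes were still falls. The annotation (GENCODE M21) lists the reference allele of Clec7a as a polymorphic pseudogene.

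Clec5a, a receptor known for its part in responses to flaviviruses and in joint inflammation in mice, had the smallest SE of the members that rose. Cells of succinate mice had 428, 468 and 514 CPM with LPS, against 141, 109 and 128 CPM without. In control mice it had 350.0, 435 and 412 CPM with LPS, against 158, 140.1 and 142 CPM without. Every LPS library was far above every unstimulated one. The changes were 1.90 ± 0.13 in succinate mice (3.73-fold, adjusted p = 5.03e-08) and 1.45 ± 0.13 in control mice (2.72-fold, adjusted p = 5.36e-07, edgeR).

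Of the inhibitory receptors, Clec12a, which binds urate crystals, rose. In succinate mice it had 164, 184 and 265 CPM with LPS, against 117, 81.7 and 127 CPM without (0.91 ± 0.19, adjusted p = 0.00176, edgeR). In control mice it had 208, 219 and 203 CPM with LPS, against 157, 117 and 118 CPM without (0.68 ± 0.19, adjusted p = 0.0119, edgeR). The groups did not overlap in either. The call in control mice was lost without unstimulated control replicate 3 (0.62). Within the lower class, which has 1 unstimulated library of each kind of mouse, the changes were 0.83 in succinate mice and 0.48 in control mice.

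Clec4a2, the other inhibitory receptor, was near its unstimulated level. Succinate cells had 172, 151 and 166 CPM with LPS, against 150.4, 114 and 124 CPM without. These groups barely parted, and the change of 0.33 ± 0.13 did not pass (adjusted p = 0.0764, edgeR). It passed in DESeq2 (adjusted p = 0.0454), with the replicate number as a block (0.34, adjusted p = 0.0358), and without replicate 1 of unstimulated control (0.33) or unstimulated succinate cells (0.45). In control mice it had 151, 164 and 159 CPM with LPS, against 170.4, 126 and 126 CPM without, with overlapping groups (0.17 ± 0.13, adjusted p = 0.398). Of the 50-base stretches in Clec4a2 transcripts, 6.83% also occur in transcripts of other genes, chiefly the paralogues Clec4a4 and Clec4b1, so part of its reads may have been assigned uncertainly. For the other 7 members this share was 0 to 1.69%.

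Card9, which links Syk to Bcl10 and Malt1, had 80.9, 84.4 and 95.9 CPM with LPS in succinate mice, against 80.5, 77.1 and 82.1 CPM without. In control mice it had 89.3, 97.6 and 76.7 CPM with LPS, against 95.5, 79.5 and 78.3 CPM without. The groups overlapped in each. The log2 fold change was 0.12 ± 0.12 in succinate mice (95% interval -0.13 to 0.38) and 0.06 ± 0.12 in control mice (-0.20 to 0.31), and its sign turned with library size alone in control mice (-0.03). An antisense gene, Gm13562, overlaps 87 of the 2293 exonic bases of Card9, and the sources used here do not say whether counting used strand.

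Markers of other cell types moved with LPS as well. Summed over the list, neutrophil markers had 18550 to 21240 CPM in succinate cells with LPS, 16820 to 22240 CPM in control cells with LPS, 9079 to 12300 CPM in unstimulated succinate cells and 10230 to 15890 CPM in unstimulated control cells. Of the 13, 5 were called higher and 2 lower with LPS in succinate mice, and 6 higher and 2 lower in control mice. Ly6g averaged 6.46 ± 1.28 CPM with LPS and 4.25 ± 1.77 CPM without in succinate mice, and 7.73 ± 0.63 CPM with LPS and 3.87 ± 1.57 CPM without in control mice (SD, n = 3 each). Macrophage markers summed to 746 to 882 CPM with LPS and 155 to 220 CPM without in succinate mice. In control mice they summed to 798 to 941 CPM with LPS and 222 to 257 CPM without. The rise in the sum was mostly that of Vcam1 (697 CPM with LPS and 91.9 without in succinate mice, 736 and 121 in control mice). Of the 4 tested, 2 were called higher in each, Vcam1 and Marco, the latter at 2.76 and 1.91 CPM with LPS. Adgre1 and Cd163 were not called. Dendritic cell markers summed to 39.1 to 56.8 CPM with LPS and 32.3 to 42.1 CPM without in succinate mice, and to 58.8 to 66.5 CPM with LPS and 29.4 to 49.5 CPM without in control mice. Of the 8 tested, 3 were called higher in succinate mice and 4 in control mice, and 0 lower. Of the 9 Ly6C-high monocyte markers, 1 was higher and 4 were lower with LPS in each kind of mouse. The higher one was Ly6c2 (1.16 ± 0.16 in succinate mice and 1.06 ± 0.16 in control mice), and Ccr2 was among the lower. Neutrophils also carry several of these lectins, and the part of such markers in the changes was not tested.

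**Figure D2:**
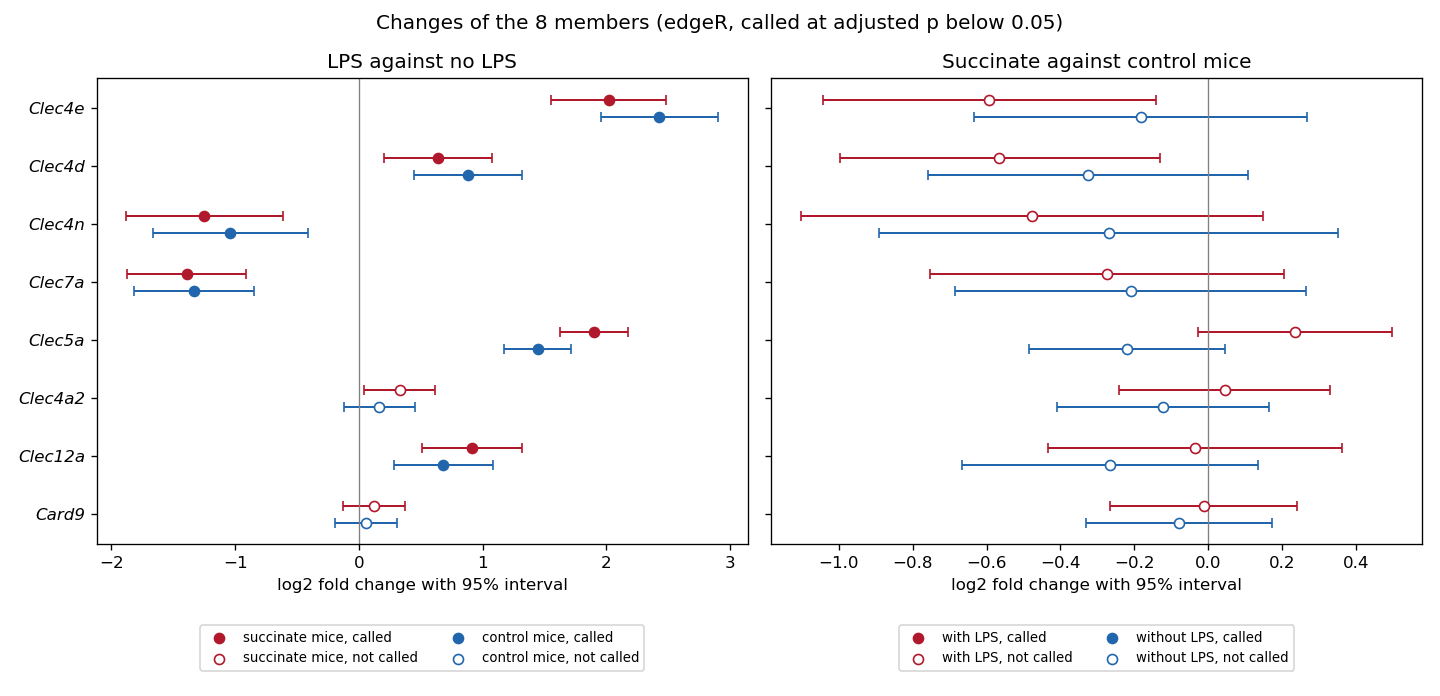
Log2 fold changes (points) with 95% intervals from edgeR for the 8 members; filled points were called at an adjusted p below 0.05. Left, LPS against no LPS in succinate mice (red) and control mice (blue), with 6 of 8 members called in each; right, succinate against control mice with LPS (red) and without (blue), with 0 of 8 called in each.

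Levels of different genes were compared per length, as CPM per kilobase of exon. With LPS, Clec4d (530 ± 72.1 in succinate mice, 784 ± 209 in control mice) and Clec4e (522 ± 108 and 787 ± 191) stood side by side above all other members, and their libraries overlapped. In succinate mice with LPS, Clec5a (122 ± 11.2) and Clec4n (94.9 ± 37.9) came next and overlapped, followed by Clec4a2 (55.7 ± 3.67) and, without separation among themselves, Card9 (38.0 ± 3.43), Clec12a (36.9 ± 9.63) and Clec7a (34.2 ± 9.62). In control mice with LPS the order after the leading pair was Clec4n (132 ± 47.7) and Clec5a (104 ± 11.5), which overlapped, then Clec4a2 (54.0 ± 2.29), and then Clec7a, Card9 and Clec12a (37.9 to 41.3), again without separation.

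Unstimulated cells had another order. In unstimulated cells of succinate mice it ran from Clec4d (340.1 ± 90.4) through Clec4n (225 ± 65.2), Clec4e (129 ± 38.0) and Clec7a (89.8 ± 27.1), each overlapping its neighbour, to Clec4a2 (44.2 ± 6.39), Card9 (34.8 ± 1.11), Clec5a (32.8 ± 4.30) and Clec12a (19.6 ± 4.28), of which Card9 and Clec5a overlapped. In unstimulated control cells it was the same but for Clec5a (38.2 ± 2.52) and Card9 (36.8 ± 4.18), which overlapped: Clec4d had 426 ± 54.9, Clec4n 272 ± 54.2, Clec4e 146 ± 6.29, Clec7a 104 ± 12.4, Clec4a2 48.2 ± 8.75 and Clec12a 23.6 ± 4.08 CPM per kilobase. There, all other neighbours in the order were separated. The values depend on the summed exon length of each gene in the annotation (1420 bases for Clec4n to 5528 for Clec12a).

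As a share of the 7 receptors' summed level per kilobase, Clec4d kept nearly the same place in all groups. It made up 38.1 ± 1.63% with LPS and 38.5 ± 1.29% without in succinate mice, and 40.2 ± 1.67% with LPS and 40.2 ± 0.997% without in control mice (SD, n = 3 each). Clec4e made up 37.2 ± 2.06% with LPS and 14.6 ± 1.46% without in succinate mice, and 40.4 ± 1.47% with LPS and 13.9 ± 1.40% without in control mice. Clec4n showed the opposite, at 6.63 ± 1.56% with LPS and 25.4 ± 1.07% without in succinate mice, and 6.70 ± 1.01% with LPS and 25.5 ± 2.46% without in control mice. Clec7a made up 2.42 ± 0.32% and 10.3 ± 2.64% in the same order in succinate mice, and 2.21 ± 0.66% and 9.98 ± 2.20% in control mice. The shares of 3 receptors did not overlap between the LPS groups, each higher in succinate mice: Clec5a with 9.77, 8.57 and 8.24% in succinate mice and 3.77, 6.24 and 6.78% in control mice, Clec4a2 with 5.14, 3.63 and 3.49% against 2.13, 3.09 and 3.43%, and Clec12a with 2.60, 2.34 and 2.95% against 1.55, 2.18 and 2.31%. In CPM, each of these 3 overlapped between the LPS groups. The summed level itself was 1396 ± 242 CPM per kilobase in succinate mice with LPS and 1940 ± 431 in control mice with LPS. Shares of a sum depend on each other, and they are given as a description.

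**Figure D3:**
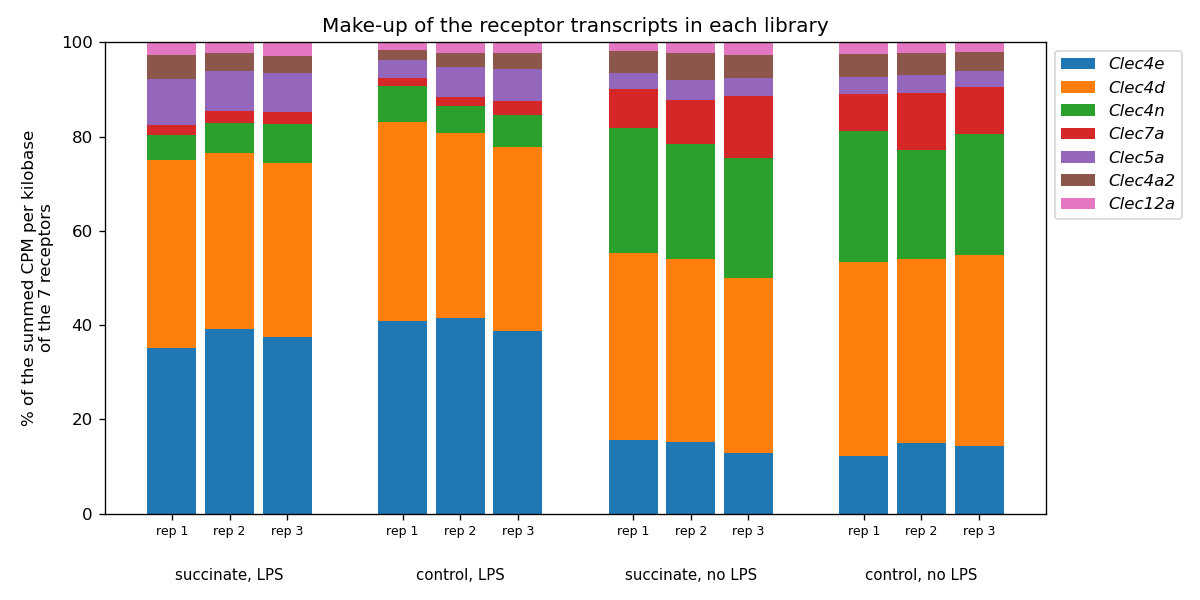
Stacked shares (%) of the 7 receptors in their summed CPM per kilobase of exon, 1 bar per library. Clec4e and Clec4d fill most of each LPS bar, while Clec4n and Clec7a are wider in the unstimulated bars (25.4% and 10.3% in succinate mice, 25.5% and 9.98% in control mice).

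The second question was whether succinate given to the mice changed the members. With LPS, edgeR called 0 of 8 members between succinate and control mice, beside 0.0628% of all genes (9 of 14324). DESeq2 and limma-voom also called 0 members, and at an unadjusted p below 0.05 there were 2 members and 1680 genes. These 2 were Clec4e, with 1990, 2769 and 3016 CPM in succinate mice against 4925, 3749 and 3049 CPM in control mice, and Clec4d, with 730, 851 and 961 CPM against 1628, 1142 and 991 CPM. For both genes the highest succinate library lay just under the lowest control library, and 17.1% of all genes had groups that did not overlap. The log2 fold changes were -0.59 ± 0.21 for Clec4e (95% interval -1.04 to -0.14, adjusted p = 0.277) and -0.56 ± 0.20 for Clec4d (-0.997 to -0.132, adjusted p = 0.278, edgeR).

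Several processing choices bore on this comparison. Without a low-count filter 3 members passed, all lower in succinate mice: Clec4e (-0.58, adjusted p = 0.00254), Clec4d (-0.55, adjusted p = 0.00439) and Clec4n (-0.47, adjusted p = 0.0287, edgeR). The estimates hardly moved, but the SE became nearly the same for all members. It was 0.138 for Clec4e, 0.136 for Clec4n and 0.138 for Card9, where the main fit had 0.211, 0.292 and 0.118. These p-values are therefore not on the footing of the main ones. With the library class as a covariate 1 did, Clec4d (-0.70, adjusted p = 0.0449). Within the lower class, which leaves out control LPS replicate 3, Clec4e was at -0.75 (adjusted p = 0.157) and Clec4d at -0.72 (adjusted p = 0.149), and neither passed. Leaving out single libraries gave -0.72 to -0.36 for Clec4e and -0.68 to -0.30 for Clec4d, the values nearest 0 being those without control LPS replicate 1. Summed marker levels of 3 lists did not overlap between the LPS groups. Those of Ly6C-high monocytes were 4931 to 5493 CPM in succinate mice and 5508 to 6320 CPM in control mice. Those of dendritic cells were 39.1 to 56.8 CPM and 58.8 to 66.5 CPM, and those of T and NK cells 31.9 to 43.0 CPM and 18.2 to 30.6 CPM. The T and NK cell sum was nearly all Nkg7 (36.6 ± 4.8 and 25.5 ± 6.8 CPM, not called), since the other 7 markers stayed under 1 CPM. Sums of the neutrophil, macrophage, B cell and erythroid lists overlapped, and the part of any of these in the result was not tested.

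Of the other members, Clec4n (-0.48, 95% interval -1.10 to 0.15) and Clec7a (-0.27, -0.75 to 0.21) were lower and Clec5a (0.23, -0.03 to 0.50) higher in value in succinate mice with LPS, without passing. Leaving out single libraries moved Clec4n between -0.83 (without succinate LPS replicate 3) and -0.12 (without control LPS replicate 1), and Clec7a between -0.44 (without succinate LPS replicate 3) and -0.07 (without succinate LPS replicate 1). Clec4a2 (0.04, -0.24 to 0.33), Clec12a (-0.04, -0.43 to 0.36) and Card9 (-0.01, -0.27 to 0.24) had estimates close to 0 and changed sign in other settings. Without LPS, edgeR called 0 of 8 members and 0% of all genes, with 0 members and 535 genes at an unadjusted p below 0.05. DESeq2 called 0 members there and 1 gene, and limma-voom 0 members. All 8 estimates were below 0, from -0.08 (Card9) to -0.33 (Clec4d, 95% interval -0.76 to 0.11), but every pair of groups overlapped. The median of the 8 was -0.21, beside 0.01 over all genes. For all 8 members, replicate 2 was the lowest of the unstimulated succinate libraries, so the shared sign rests in part on that library. Without it the estimates were -0.04 for Clec4e, -0.165 for Clec4d, -0.08 for Clec4n and -0.0002 for Clec7a. Those of Clec5a and Clec12a were then -0.124 and -0.0987. Between the same unstimulated groups, summed markers of Ly6C-high monocytes (4510 to 5247 CPM in succinate mice and 5662 to 6254 CPM in control mice), macrophages (155 to 220 CPM and 222 to 257 CPM) and B cells (169 to 230.0 CPM and 126 to 153 CPM) did not overlap.

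The LPS response itself was then compared between succinate and control mice by the interaction term. edgeR called 0 of 8 members and 0% of all genes, with 1 member and 560 genes at an unadjusted p below 0.05. DESeq2 called 0 members and 3 genes, and limma-voom 0 members. The 1 member was Clec5a, whose LPS effect was larger in succinate mice by 0.45 ± 0.17 (95% interval 0.08 to 0.83, unadjusted p = 0.0205, adjusted p = 0.9999, edgeR). For Clec4e the difference was -0.41 ± 0.30 (-1.04 to 0.23) and for Clec4d -0.24 ± 0.28 (-0.85 to 0.37). Within the lower class, which has 1 unstimulated library of each kind of mouse, the Clec4e difference was -1.01. Without unstimulated succinate replicate 1 it was -0.14, and without control LPS replicate 1 it was -0.17, where the Clec4d difference was 0.03.

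The 3 neighbouring genes Clec4d, Clec4e and Clec4n also varied together between libraries of the same group. Over the 12 libraries, log2 CPM deviations from the group mean had a Pearson r of 0.91 for Clec4e with Clec4d, 0.92 for Clec4d with Clec4n and 0.85 for Clec4e with Clec4n. The remaining pairs of members ranged from -0.14 to 0.77. The points share library, depth and scaling, and the values are given as a description. Clec4d and Clec4n had their highest value in the same library in 4 of 4 groups and their lowest in 3 of 4. In succinate mice with LPS all members but Clec4a2 were highest in replicate 3 and lowest in replicate 1. The coefficient of variation of the members had a median of 17.1% there, 13.1% in control mice with LPS, 24.2% in unstimulated succinate cells and 12.4% in unstimulated control cells, while all genes averaging at least 10 CPM had medians of 9.25, 9.97, 13.8 and 7.94% in these 4 groups. Clec4n had the widest spread of the members in the LPS groups (39.9% in succinate mice and 36.1% in control mice).

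**Figure D4:**
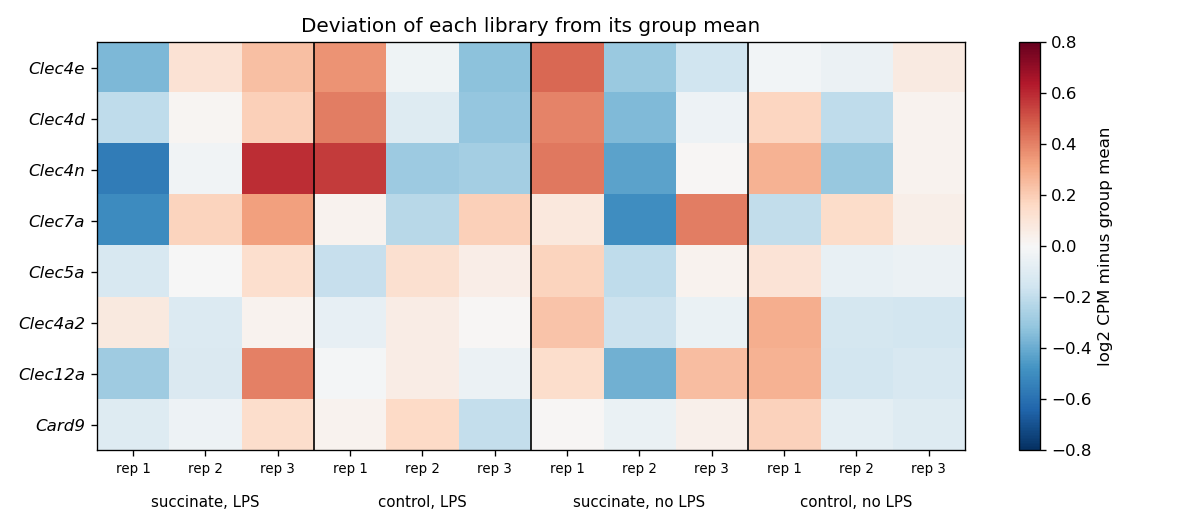
Deviation of each library's log2 CPM from its group mean (colour, red above and blue below) for the 8 members in the 12 libraries. The rows of Clec4e, Clec4d and Clec4n share most of their colours (r of 0.91, 0.92 and 0.85 between them).

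Clec4e and Clec4n moved apart relative to Clec4d although all lie within a short stretch of chromosome 6. The ratio of Clec4e to Clec4d per kilobase was 0.98 ± 0.09 with LPS and 0.38 ± 0.03 without in succinate mice, and 1.008 ± 0.044 with LPS and 0.35 ± 0.04 without in control mice. The ratio of Clec4n to Clec4d was 0.17 ± 0.05 with LPS and 0.66 ± 0.03 without in succinate mice, and 0.17 ± 0.02 with LPS and 0.63 ± 0.05 without in control mice. For each ratio the LPS and unstimulated libraries were apart, and those of succinate and control mice overlapped within each condition. Clec4b2, the only other protein-coding gene annotated between Clec4a2 and Clec4e, had 14.3 CPM with LPS and 12.1 CPM without in succinate mice, and 13.98 CPM with LPS and 12.47 CPM without in control mice, and was not called. Between Clec12a and Clec7a, Clec12b, Clec9a and Clec1a were too low to test, and Clec1b, at under 1 CPM on average in every group, was not called.

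Among 34 other C-type lectin genes, 19 were measured well enough to test. With LPS 7 were higher and 1 lower in succinate mice (median 0.72), and 8 higher and 1 lower in control mice (median 0.40). The activation marker Cd69 had 40.5 ± 1.62 CPM with LPS and 4.26 ± 0.81 CPM without in succinate mice (3.25 ± 0.16), and 31.8 ± 4.02 CPM with LPS and 3.26 ± 0.30 CPM without in control mice (3.28 ± 0.16). Cd302 rose by 2.54 ± 0.24 in succinate mice and 2.74 ± 0.24 in control mice, the oxidised lipoprotein receptor Olr1 by 1.59 ± 0.14 and 1.33 ± 0.14, and the endocytic receptor Ly75 by 1.02 ± 0.14 and 1.49 ± 0.14. Clec10a, a galactose-type lectin, fell, with 1.95 ± 0.65 CPM with LPS and 8.21 ± 1.10 CPM without in succinate mice (-2.08 ± 0.40) and 3.12 ± 2.17 CPM with LPS and 8.82 ± 1.90 CPM without in control mice (-1.49 ± 0.39). No gene of this list was called between succinate and control mice or for the interaction in edgeR.

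All 28 genes of the signalling route below the activating receptors could be tested. In succinate mice 6 were higher and 7 lower with LPS (median -0.07), and in control mice 8 were higher and 8 lower (median 0.04). The paracaspase Malt1, which acts with Card9, had 679 ± 198 CPM with LPS and 134 ± 15.2 CPM without in succinate mice (2.34 ± 0.19, adjusted p = 2.95e-07) and 992 ± 158 CPM with LPS and 154 ± 8.5 CPM without in control mice (2.68 ± 0.19, adjusted p = 7.94e-08, edgeR). Prkcd, the kinase that acts on Card9, rose by 1.07 ± 0.12 in succinate mice and 1.21 ± 0.12 in control mice. Lower were the transcription factor gene Nfatc1 (-1.47 ± 0.18 and -1.58 ± 0.18), the calcium channel gene Itpr2 (-1.18 ± 0.14 and -1.03 ± 0.14) and Trim62, a ubiquitin ligase of Card9 (-1.51 ± 0.18 and -1.15 ± 0.18), each in succinate mice first and control mice after. Further partners were added after their values were seen. Syk rose by 0.73 ± 0.12 in succinate mice and 0.98 ± 0.12 in control mice, and Fcer1g by 0.72 ± 0.22 and 0.71 ± 0.22, while Tyrobp (-0.38 and -0.57) and Bcl10 (0.22 and 0.31) did not pass.

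Of 10 inhibitory signalling genes 4 were higher and 3 lower with LPS in each kind of mouse (median 0.10 in succinate mice and 0.02 in control mice). The receptor phosphatase Ptprj rose by 1.30 ± 0.15 in succinate mice and 1.44 ± 0.15 in control mice, and the ubiquitin ligases Cblb by 0.72 ± 0.15 and 1.28 ± 0.15 and Cbl by 0.43 ± 0.13 and 0.44 ± 0.13. The lipid phosphatase Inpp5d (SHIP-1) fell, with 119 ± 6.76 CPM with LPS and 262 ± 27.1 CPM without in succinate mice (-1.14 ± 0.10) and 118 ± 5.96 CPM with LPS and 262 ± 12.6 CPM without in control mice (-1.15 ± 0.10). The adaptors Dok3 (-0.72 ± 0.12 and -0.71 ± 0.12) and Sh2b3 (-0.67 ± 0.15 and -0.68 ± 0.15) were lower too. In both signalling lists edgeR called 0 genes between succinate and control mice, with or without LPS, and 0 for the interaction.

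The genes most like each member were sought among those averaging at least 10 CPM, by the root mean square difference of centred log2 CPM over the 12 libraries. Nearest to Clec4e were Cd274 (0.15), the gene of the checkpoint ligand PD-L1, and Malt1 (0.19). Nearest to Clec4d were Id2 (0.15) and Fcer1g (0.16). For Clec4n they were Ugt1a7c (0.21) and Fxyd5 (0.22), for Clec7a Mmp8 (0.15), a collagenase of neutrophil granules, and Rap2a (0.17), and for Clec5a the predicted gene Gm37691 (0.13) and Plscr1 (0.15). Clec4a2 was nearest to Rwdd1 (0.08) and Gid8 (0.09), Clec12a to Anp32a (0.08) and Ppp1r11 (0.12), and Card9 to 0610030E20Rik (0.07) and Cd2bp2 (0.08).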

How the data were processed

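The members and lists were chosen with earlier results of these data known. The authors deposited raw read counts (whole numbers, 1 file per library), and Trim Galore and mm10 are named per the submitters' processing notes. The sources used here do not name the aligner, counter, annotation or use of strand. Coordinates and exon lengths came from GENCODE M21 (GRCm38), which holds 54409 of the 54532 identifiers.

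Counts were tested with edgeR 4.0.16 (R 4.3.3): filterByExpr kept 14324 genes, TMM factors scaled the libraries, and the quasi-likelihood fit used all 12 of them with a mean for each of the 4 groups. Contrasts were LPS against none in each kind of mouse, succinate against control with and without LPS, and the interaction. A gene was called where its p, adjusted by Benjamini-Hochberg over the tested genes, was below 0.05. Log2 CPM used a prior count of 2. The fitting was checked on simulated counts. Named were all 8 members, called genes of 3 pathway lists with the smallest adjusted p (up to 3 per direction in the LPS contrasts), and the 2 genes nearest to each member. A gene that this rule names is not reported here. Alternatives were RLE scaling, library size alone, no filter, a filter of 1 CPM in 6 or more libraries, DESeq2 1.42.0, limma-voom (limma 3.58.1), the 2 groups alone, a replicate block, library class, each library left out and, chosen after seeing the data, the 7 libraries of the lower class alone. Replicates of a group differed beyond sampling noise (chi-square per degree of freedom 6.97 to 43.6), so each counted as 1 sample. Between the unstimulated groups, deviations of same-numbered libraries correlated at 0.12 to 0.26, which by the rule used counts as pairing found in the data, not stated by the labels, and the library classes there follow the same numbers. In the other comparisons they did not all exceed 0.1.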

Additional observations from a re-analysis of the deposited data

How the results depend on the processing

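For LPS, the count of called members was 5 to 7 of 8 in succinate mice and 5 or 6 in control mice in all alternatives but the fit to the 7 libraries of the lower class, which was chosen after seeing the data and gave 4 in each. There the count of all called genes was 2229 in succinate mice and 2107 in control mice. The directions of the 6 called members held in every alternative run. Between succinate and control mice with LPS, the member count was 3 without a low-count filter and 1 with the library class as a covariate. Without the filter the SE was nearly the same for all members. The count of all genes, 9, was the least stable: 0 with library size alone and with only the 2 groups compared, 694 without a filter, 30 with at least 1 CPM in at least 6 libraries, 346 in DESeq2, 34 in limma-voom, 190 with the class covariate, 1 within the lower class, and 0 to 201 with single libraries left out. The cause was not tested. Library size alone moved the median of all genes in this comparison to 0.11. Without LPS the count of all genes was 72 without a filter and 1 in DESeq2, and for the interaction 71 and 3.

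With the replicate number as a block, 77 genes passed between the LPS groups, Clec4a2 passed for LPS in succinate mice (log2 fold change 0.34), and no other member's call changed. Same-numbered libraries did not all correlate best with their own number, save between the unstimulated groups.

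Signs turned only for values that were not called, and the turned values were up to 0.26 in size. Card9 was at -0.0067 for LPS in succinate mice with the class covariate, and in control mice at -0.025 with library size alone, -0.0064 with the class covariate and -0.027 to 0.156 with single libraries left out. Between the LPS groups, Card9 was at 0.11 with library size alone, 0.00029 without a filter, 0.0136 with only the 2 groups compared and -0.0886 to 0.102 with libraries left out, Clec12a at 0.0803 with library size alone and -0.268 to 0.0931 with libraries left out, and Clec4a2 at -0.0453 with the class covariate and -0.0013 to 0.11 with libraries left out. Within the lower class, Clec4a2 was at -0.0823 for LPS in control mice, and without LPS Clec4e was at 0.26 and Clec7a at 0.026 between succinate and control mice. There, leaving out libraries gave -0.243 to 0.0381 for Clec4a2 and -0.131 to 0.0182 for Card9. For the interaction it gave -0.407 to 0.0303 for Clec4d, -0.56 to 0.16 for Clec4n, -0.28 to 0.16 for Clec7a, -0.0017 to 0.36 for Clec12a and -0.0315 to 0.189 for Card9, with Clec7a at 0.0245 with library size alone and Card9 at -0.00031 with the class covariate. A lone library was taken to vary like the other groups.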
